A study of Homo sapiens with 12 samples.

Results

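The genes described here encode nuclear subunits of the mitochondrial respiratory chain and of the ATP synthase. They were all genes whose symbol begins with NDUFA, NDUFB, NDUFC, NDUFS or NDUFV and a number, SDHA to SDHD, symbols that begin with UQCR, COX4 to COX8, and symbols that begin with ATP5. The rule found 82 genes of the 18132 measured: 35 of complex I, 3 of complex II, 8 of complex III, 17 of complex IV and 19 of complex V, the ATP synthase. It used names and no measured value. The ATP synthase genes include ATP5IF1, an inhibitor of the enzyme and not a subunit, and the complex IV genes include COX7A2L, a factor that links complexes III and IV.

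Complexes I and II pass electrons from NADH and succinate to ubiquinone, complex III passes them on to cytochrome c, and complex IV reduces oxygen with them. Complexes I, III and IV pump protons, and the ATP synthase lets the protons flow back to make ATP. Each complex except complex II also needs subunits made from mitochondrial DNA, so the nuclear genes given here code for only part of it, and in many cells the transcription factors NRF1, YY1 and the ETS family act at their promoters.

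RNA was measured in 2 human neuroblastoma cell lines, BE(2)-C and Kelly, on Affymetrix PrimeView arrays. Cells were treated for 24 h with 1 µM JQ1, which binds the bromodomains of the BET proteins and displaces them from chromatin, or with DMSO, the solvent control. The 4 groups were Kelly cells with JQ1, Kelly cells with DMSO, BE(2)-C cells with JQ1 and BE(2)-C cells with DMSO, with 3 arrays each. The MYC family oncogene MYCN is known to be amplified in each line. The labels speak of triplicate treatment and name no separate cultures, so the p-values rest on a spread between samples that may be technical only. Each line stands for itself: a difference between BE(2)-C and Kelly is a difference between 2 lines. All values are log2 intensities of the gene's brightest probe set, a gene passed when the limma p-value adjusted over all genes was under 0.05, and errors after ± are standard errors (SE) of a log2 difference unless SD is written.

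Of 7 measured neuroblastoma markers, HAND2 and CHGA had high values (group means of 12.71 to 13.10 and 13.46 to 14.12), and the values of the others are not given here. The 7 did not move as 1 set. Under DMSO 3 were lower in BE(2)-C, and with JQ1 2 rose and 2 fell on average. These counts stand beside 15.1% and 11.1% of all genes that passed. The group means of 4 haematopoietic markers lay between 3.84 and 6.47, and of 4 epithelial markers between 4.12 and 5.62. Those of 4 Schwann cell or fibroblast markers lay between 4.50 and 7.40, and 2 of these 4 were higher in BE(2)-C under DMSO. The 2 Kelly arrays numbered 3 stood apart. Their hybridization control signal, which comes from bacterial transcripts added to each sample, was 13.65 with JQ1 and 13.26 with DMSO, against 9.94 to 12.92 in the other 10 arrays. Their excess of the 3' over the 5' probe sets of actin, a measure of RNA integrity, was 2.24 and 2.22, against 1.24 to 1.65 in the other 4 Kelly arrays and 0.63 to 1.24 in the 6 BE(2)-C arrays. Counts and medians are given with and without these arrays, and a call that was lost without them is named beside its gene.

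With JQ1 a small number of these genes fell, at about the rate of all genes. In Kelly 6 of the 82 genes fell and 0 rose: NDUFC1, NDUFA9 and NDUFB4 of complex I, UQCR10 of complex III, and ATP5MC1 and ATP5IF1 of complex V. That is 7.32% of these genes, beside 6.5% of all genes that passed in Kelly in either direction, 4.73% that fell and 1.76% that rose, so the share was near that of all genes. Among the 1923 genes with a mean log2 intensity of at least 10, where most subunit genes lie, 8.48% passed. In BE(2)-C limma called 0 of 82, beside 4.69% of all genes, and 7 of 82 had an unadjusted p under 0.05. In RNA of whole cultures, fewer cells that express a gene and less RNA per cell cannot be told apart.

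Averaged over both lines, 9 of 82 passed (11%, beside 11.1% of all genes). NDUFC1, NDUFA9, NDUFB10, NDUFS6, NDUFB4, UQCR10, ATP5MC1 and ATP5IF1 fell, beside 7.04% of all genes that fell, and NDUFV3 rose, beside 4.02% of all genes that rose. NDUFS6 is not among the genes chosen by the naming rule and is named because it completes the count. All 8 genes that fell had a negative change in each line. The 3 JQ1 values lay below the 3 DMSO values for all 8 in Kelly and for 6 of 8 in BE(2)-C. These 8 were picked because they passed on the same arrays, so this follows in part from the choice. Over all 82 genes 14 lay below in Kelly and 10 in BE(2)-C, beside 11.6% and 10.7% of all genes. The change was larger in Kelly for each of the 8, although no difference between the lines passed.

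Promoter sequences are given to show which of the motifs named here each one holds: the 4 of the 8 fallen genes that hold any of them (NDUFA9, NDUFB4, UQCR10 and ATP5MC1), NDUFB10 as an example of the other 4, which hold none, and NDUFV3, the gene that rose. The 4 were chosen for their matches, so they do not stand for the genes that fell. They are from RefSeq on GRCh38.p14, on the plus strand, and run from 250 bases before to 50 bases after the gene's start. Capitals mark matches, on either strand, to the motifs of NRF1 (GCGCA and GCGC with any 1 base between them), YY1 (AAGATGGC), ETS factors (CCGGAAGT) and the E-box that MYC family proteins bind (CACGTG), and none of the marked matches overlap.
NDUFA9, chr12:4648864-4649163: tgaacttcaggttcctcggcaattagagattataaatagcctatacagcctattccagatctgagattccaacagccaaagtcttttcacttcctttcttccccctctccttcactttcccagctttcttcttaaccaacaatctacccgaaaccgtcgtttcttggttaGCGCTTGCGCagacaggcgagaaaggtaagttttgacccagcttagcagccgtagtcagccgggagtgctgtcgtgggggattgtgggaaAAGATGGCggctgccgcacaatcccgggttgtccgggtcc
NDUFB4, chr3:120596086-120596385: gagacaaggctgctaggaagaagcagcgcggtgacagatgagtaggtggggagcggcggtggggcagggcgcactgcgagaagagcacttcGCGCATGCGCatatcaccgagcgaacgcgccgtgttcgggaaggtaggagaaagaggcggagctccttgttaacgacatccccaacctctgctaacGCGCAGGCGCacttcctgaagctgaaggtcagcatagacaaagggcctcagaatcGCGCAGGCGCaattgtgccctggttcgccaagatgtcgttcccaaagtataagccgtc
UQCR10, chr22:29767119-29767418: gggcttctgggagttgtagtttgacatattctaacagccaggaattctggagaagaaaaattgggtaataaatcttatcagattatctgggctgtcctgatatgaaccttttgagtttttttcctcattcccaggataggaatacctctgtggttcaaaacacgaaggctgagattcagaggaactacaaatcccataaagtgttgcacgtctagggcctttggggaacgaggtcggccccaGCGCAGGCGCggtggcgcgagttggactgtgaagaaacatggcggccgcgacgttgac
ATP5MC1, chr17:48892537-48892836: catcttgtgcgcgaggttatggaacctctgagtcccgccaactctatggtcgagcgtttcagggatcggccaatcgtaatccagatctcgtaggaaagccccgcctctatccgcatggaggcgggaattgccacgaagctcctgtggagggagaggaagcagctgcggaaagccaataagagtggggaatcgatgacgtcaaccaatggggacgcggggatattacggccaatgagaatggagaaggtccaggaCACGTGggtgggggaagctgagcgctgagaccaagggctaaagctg
NDUFB10, chr16:1959288-1959587: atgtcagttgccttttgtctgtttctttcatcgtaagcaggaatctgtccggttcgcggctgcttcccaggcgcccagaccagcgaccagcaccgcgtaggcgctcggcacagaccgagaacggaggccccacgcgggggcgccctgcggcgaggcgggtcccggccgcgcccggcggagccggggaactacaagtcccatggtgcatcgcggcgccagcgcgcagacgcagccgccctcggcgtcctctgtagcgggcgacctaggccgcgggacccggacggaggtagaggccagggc
NDUFV3, chr21:42893059-42893358: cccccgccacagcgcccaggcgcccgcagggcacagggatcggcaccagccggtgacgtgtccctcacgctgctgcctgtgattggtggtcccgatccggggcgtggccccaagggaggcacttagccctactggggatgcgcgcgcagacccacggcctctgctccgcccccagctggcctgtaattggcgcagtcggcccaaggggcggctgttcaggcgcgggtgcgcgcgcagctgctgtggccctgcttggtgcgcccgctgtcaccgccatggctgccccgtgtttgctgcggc

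NDUFA9 holds 1 NRF1 and 1 YY1 match, NDUFB4 holds 3 NRF1 matches, UQCR10 holds 1, and ATP5MC1 holds 1 E-box. NDUFB10 and NDUFV3 hold 0 of the 4 motifs in this window, and so do NDUFS6, ATP5IF1 and each of the 4 entries of NDUFC1, the gene with the largest change. Promoters were found for 67 of the 82 genes, with 80 entries. The NRF1 motif was in 20.0% of these entries, beside 5.784% of all 35116 promoters in the table. The YY1 motif was in 15.0%, beside 2.888% of all promoters, and the ETS motif in 15.0%, beside 4.138%. The E-box was in 8.75%, beside 7.256%. Of the 8 genes that fell, 3 hold the NRF1 motif, 1 the YY1 motif, 1 the E-box and 0 the ETS motif. A match describes letters and does not show binding.

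Complex I, which oxidises NADH and is the largest group here, held 6 of the 9 genes that passed on average. That is 17.1% of its 35 genes, beside 11.1% of all genes and 17.3% of the genes with a mean of at least 10. NDUFC1, a small subunit of the membrane arm, had the largest change. Its values were 9.92, 9.66 and 8.97 in Kelly with JQ1, against 11.18, 11.32 and 10.54 with DMSO. BE(2)-C cells had 10.89, 11.07 and 10.66 with JQ1, against 11.28, 11.87 and 11.81 with DMSO. In each line every JQ1 array lay below every DMSO array. The change in Kelly was 2.81-fold lower (log2 change -1.49 ± 0.27, adjusted p = 0.00542). The log2 change in BE(2)-C was -0.78 ± 0.27, with an adjusted p of 0.147. The average, -1.14 ± 0.19, passed with an adjusted p of 0.00205.

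NDUFA9, which sits where the peripheral arm meets the membrane arm near the ubiquinone site, had 10.11, 10.07 and 9.89 in Kelly with JQ1, against 11.12, 11.16 and 10.47 with DMSO. The JQ1 values were close together and all below the DMSO values. The Kelly log2 change was -0.89 ± 0.20 (adjusted p = 0.0207). NDUFA9 in BE(2)-C had 9.95, 10.06 and 9.90 with JQ1, against 10.16, 10.67 and 10.62 with DMSO, again without overlap. The log2 change there was -0.51 ± 0.20 (adjusted p = 0.222), and the average over the lines was -0.70 ± 0.14 (adjusted p = 0.00699).

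NDUFB4 and NDUFB10 are accessory subunits of the far part of the membrane arm. NDUFB4 had 11.40, 11.38 and 11.12 in Kelly with JQ1, against 11.95, 11.87 and 11.83 with DMSO. BE(2)-C cells had 12.01, 11.93 and 12.08 with JQ1, against 12.27, 12.43 and 12.46 with DMSO. Neither line showed overlap. The log2 change was -0.58 ± 0.14 in Kelly (adjusted p = 0.0260), -0.38 ± 0.14 in BE(2)-C (adjusted p = 0.176) and -0.48 ± 0.10 on average (adjusted p = 0.00699). NDUFB10 had 10.34, 10.59 and 9.70 in Kelly with JQ1, against 10.87, 10.72 and 10.95 with DMSO. The BE(2)-C values were 10.98, 11.02 and 11.12 with JQ1, against 11.53, 11.66 and 11.50 with DMSO. The BE(2)-C groups were each tight and well apart, while the Kelly JQ1 group was wide, with its array 3 the lowest. The log2 change was -0.64 ± 0.20 in Kelly (adjusted p = 0.0797) and -0.52 ± 0.20 in BE(2)-C (adjusted p = 0.194), and the average of -0.58 ± 0.14 passed (adjusted p = 0.0179).

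NDUFS6, a zinc-binding accessory subunit of the peripheral arm, had an average log2 change of -0.51 ± 0.14 (adjusted p = 0.0299), and this call was lost when any of 8 of the 12 arrays was left out alone. NDUFV3, an accessory subunit beside the NADH-oxidising site, moved the other way. It had 10.38, 10.52 and 10.40 in Kelly with JQ1, against 9.73, 9.41 and 10.17 with DMSO. The BE(2)-C arrays gave 11.23, 11.11 and 11.46 with JQ1, against 10.98, 10.75 and 10.57 with DMSO. All JQ1 arrays lay above all DMSO arrays in each line, in a gene picked because it passed on these arrays. Over the 82 genes this held for 2 in Kelly and 11 in BE(2)-C, beside 12.1% and 11.5% of all genes. The average log2 change of NDUFV3 was 0.58 ± 0.14 (adjusted p = 0.0164), with 0.67 ± 0.20 in Kelly (adjusted p = 0.0647) and 0.50 ± 0.20 in BE(2)-C (adjusted p = 0.216).

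Complex I has 6 core subunits that carry the flavin and iron-sulphur clusters, encoded by NDUFS1, NDUFS3, NDUFS7, NDUFS8, NDUFV1 and NDUFV2. Of these 0 passed by limma, with 0 of 6 at an unadjusted p under 0.05 in either line or on average, and their average log2 changes ran from -0.22 to 0.03. Of the 29 accessory subunit genes, 5 fell and 1 rose on average, beside 11.1% of all genes and 17.3% of the genes with a mean of at least 10 that passed. With 6 core genes, a count of 0 is not shown to differ from those shares. This grouping was made after the values were seen, and the core genes were not tested against the accessory genes. The 29 complex I genes of either kind that did not pass had average log2 changes of -0.54 (NDUFA5) to 0.38 (NDUFA2), and both ends were chosen for their values.

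**Figure D1:**
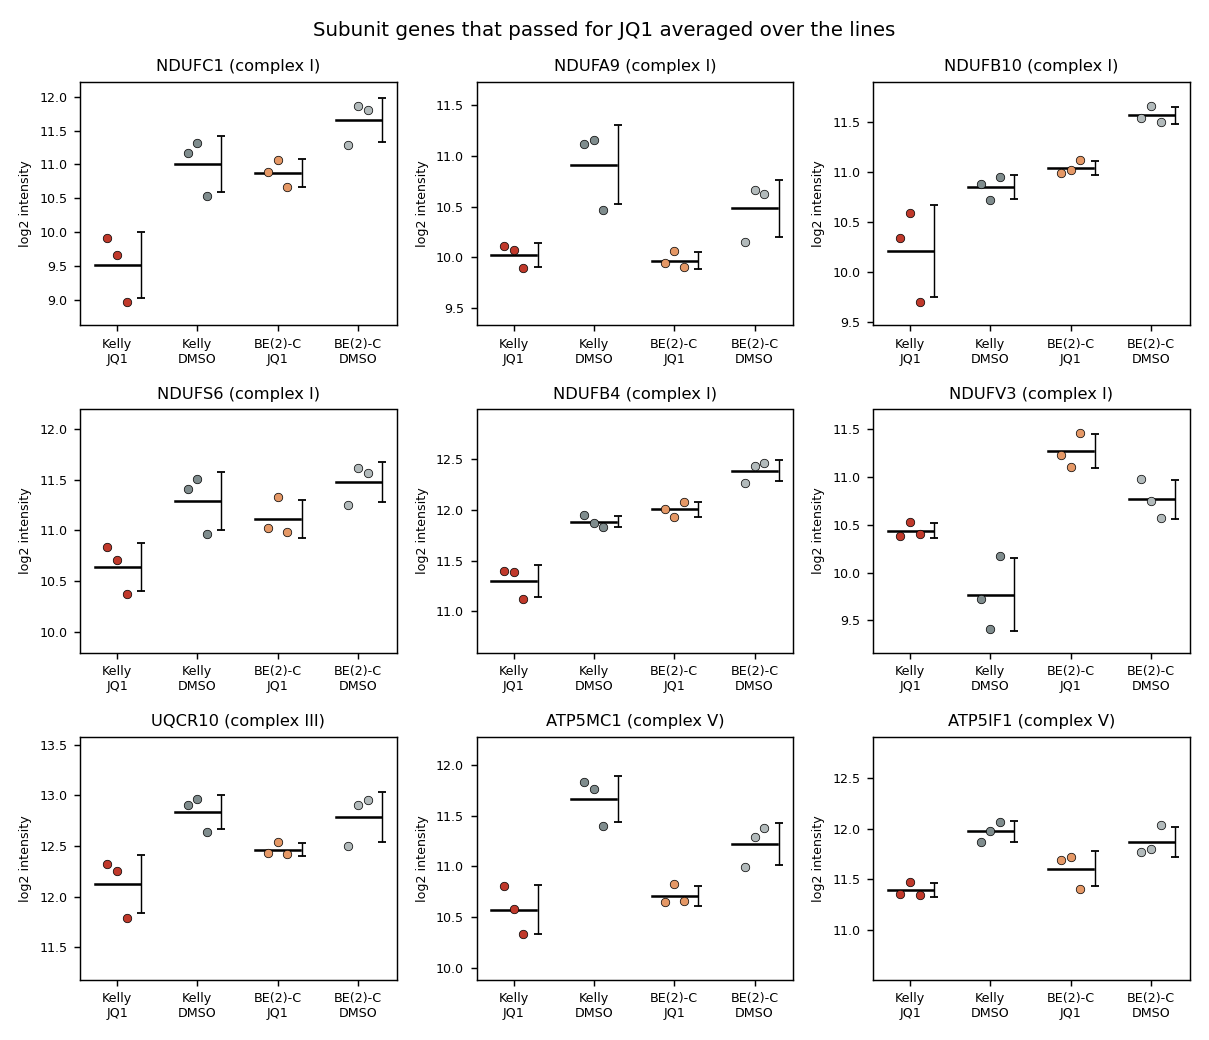
Log2 intensity (vertical axis) of the 9 genes that passed for JQ1 averaged over the lines, in Kelly with JQ1, Kelly with DMSO, BE(2)-C with JQ1 and BE(2)-C with DMSO. Points are arrays in the order of replicates 1 to 3, horizontal bars are means and error bars are SD (n = 3). NDUFC1 shows the widest gap in Kelly (means of 9.52 with JQ1 and 11.01 with DMSO), and NDUFV3 is the gene that lies higher with JQ1.

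Complex III, the cytochrome bc1 complex, had 1 of 8 genes that passed on average (12.5%, beside 11.1% of all genes). UQCR10, a small subunit of the membrane part, had 12.32, 12.26 and 11.79 in Kelly with JQ1, against 12.90, 12.96 and 12.64 with DMSO. BE(2)-C cells had 12.42, 12.53 and 12.42 with JQ1, against 12.50, 12.90 and 12.95 with DMSO. The groups were apart in Kelly and overlapped by 1 array in BE(2)-C. The log2 change was -0.71 ± 0.18 in Kelly (adjusted p = 0.0371), -0.32 ± 0.18 in BE(2)-C (adjusted p = 0.507) and -0.52 ± 0.13 on average (adjusted p = 0.0216). The core subunits UQCRC1 and UQCRC2 did not pass, with Kelly log2 changes of 0.09 ± 0.21 and -0.55 ± 0.25. Over the 8 genes the log2 changes ran from -0.71 to 0.46 in Kelly and from -0.32 to 0.14 in BE(2)-C.

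In the ATP synthase, ATP5MC1 and ATP5IF1 fell. ATP5MC1 encodes subunit c, which forms the rotor ring in the membrane. It had 10.81, 10.58 and 10.33 in Kelly with JQ1, against 11.83, 11.76 and 11.40 with DMSO. The BE(2)-C values were 10.64, 10.82 and 10.66 with JQ1, against 10.99, 11.29 and 11.38 with DMSO. The JQ1 arrays lay below the DMSO arrays in both lines. ATP5MC1 was 2.13-fold lower in Kelly (log2 change -1.09 ± 0.18, adjusted p = 0.00278). The log2 change was -0.51 ± 0.18 in BE(2)-C (adjusted p = 0.149) and -0.80 ± 0.13 on average (adjusted p = 0.00130). ATP5MC2 and ATP5MC3 encode the same mature subunit c from other loci, and neither passed: their Kelly log2 changes were -0.43 and -0.21, and those in BE(2)-C were -0.13 and -0.03.

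ATP5IF1, which keeps the synthase from running backwards and splitting ATP, had 11.36, 11.47 and 11.35 in Kelly with JQ1, against 11.87, 11.98 and 12.07 with DMSO. The 2 Kelly groups were tight and apart. The Kelly log2 change was -0.58 ± 0.15 (adjusted p = 0.0348). With the replicate number as a block, which treats same-numbered Kelly arrays as pairs, the adjusted p was 0.0715. For ATP5IF1 the BE(2)-C values were 11.69, 11.72 and 11.41 with JQ1, against 11.77, 11.80 and 12.04 with DMSO. The log2 change there was -0.26 ± 0.15 (adjusted p = 0.499). The average of -0.42 ± 0.10 had an adjusted p of 0.0202, or 0.0563 with the block. Without the Kelly arrays numbered 3 the Kelly change was -0.51 (adjusted p = 0.0904), and with the mean of its probe sets it was -1.19 in Kelly and -0.72 on average. By position in the enzyme, 0 of 5 genes of the catalytic F1 part, 0 of 4 of the peripheral stalk and 0 of 6 of the remaining membrane part passed by limma for JQ1 in Kelly, in BE(2)-C or on average, and 1 gene of the membrane part, on average, had an unadjusted p under 0.05. The ATP synthase genes that did not pass on average had log2 changes of -0.30 to 0.26.

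**Figure D2:**
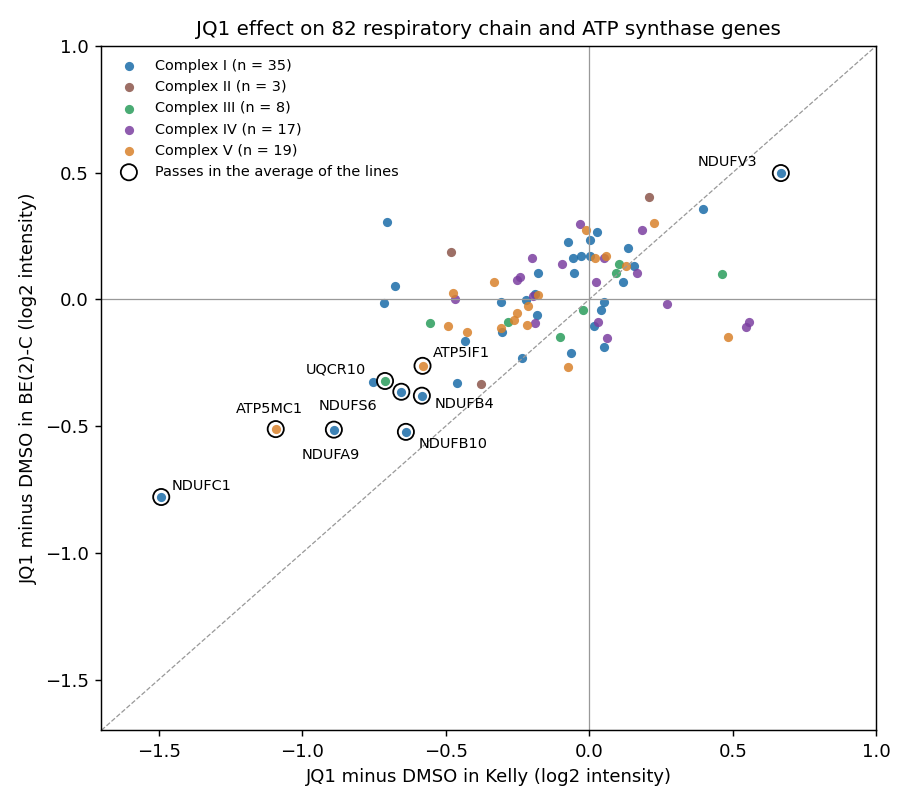
Log2 change with JQ1 in Kelly (horizontal axis) and in BE(2)-C (vertical axis) for the 82 genes, coloured by complex. Rings mark the 9 genes that passed on average, and the dashed line marks equal changes: 8 ringed genes lie at the lower left, between it and the horizontal zero line, and NDUFV3 lies in the upper right.

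No gene of complexes II and IV passed for JQ1 in Kelly, in BE(2)-C or on average. Limma gave 0 of 3 complex II genes an unadjusted p under 0.05 in any of these comparisons. SDHA, which carries the flavin of succinate dehydrogenase, had 10.06, 9.76 and 9.65 in Kelly with JQ1, against 9.81, 9.91 and 9.12 with DMSO, and the groups overlapped. The BE(2)-C arrays gave 10.32, 10.50 and 10.36 with JQ1, against 9.61, 10.20 and 10.15 with DMSO, with every JQ1 array higher. The log2 change was 0.21 ± 0.23 in Kelly (adjusted p = 0.586) and 0.41 ± 0.23 in BE(2)-C (adjusted p = 0.492). SDHC and SDHD, the membrane anchors, had Kelly log2 changes of -0.48 ± 0.29 and -0.38 ± 0.30, with overlapping groups. The probe sets of these genes did not give 1 picture. Of the 5 probe sets of SDHC, 1 passed in Kelly at -0.95 (adjusted p = 0.0406), and the others, which did not pass, ran from -0.84 to -0.0026. For SDHD the brightest probe set changed by -0.38 in Kelly and did not pass, while 3 of its 5 probe sets passed at -0.66, -0.97 and -0.97, the last 2 of which hold identical values on every array. Here p-values were adjusted over the 44988 probe sets that name 1 gene, and 14 of the 188 probe sets of the 82 genes fell in Kelly, beside 3.39% of all probe sets that fell and 4.35% that passed in either direction.

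Of the 17 complex IV genes, 1 had an unadjusted p under 0.05 in Kelly, 1 in BE(2)-C and 0 on average. COX7B, a small subunit, had the largest negative change in Kelly. It had 12.12, 11.98 and 11.70 with JQ1, against 12.45, 12.66 and 12.11 with DMSO, which overlap in 1 array. Its Kelly log2 change was -0.47 ± 0.20 (adjusted p = 0.198), and in BE(2)-C it was 0.00 ± 0.20. Complex IV has tissue-restricted forms of several subunits, which in the body are found mainly in lung, heart, skeletal muscle or testis. COX4I2, the lung form of COX4, had 5.78, 5.94 and 6.43 in Kelly with JQ1, against 5.39, 5.14 and 5.99 with DMSO. COX7A1, the heart and muscle form, had 5.55, 5.73 and 6.32 with JQ1, against 5.33, 4.95 and 5.66 with DMSO. In both genes array 3 was the highest of its group. COX6A2, COX6B2, COX7B2 and COX8C, the other 4 such forms measured, also did not pass, and the Kelly log2 changes of all 6 ran from 0.03 to 0.56. The Kelly log2 changes of their common counterparts COX4I1, COX6A1, COX6B1, COX7A2, COX7B and COX8A ran from -0.47 to 0.18. The 6 restricted forms were dim. Their means over the 12 arrays ran from 3.64 (COX7B2) to 6.91 (COX6B2), beside array medians over all genes of 6.52 to 6.74. With the hybridization control signal as a covariate, their Kelly changes ran from -0.15 (COX6B2) to 0.26 (COX4I2). The part of background signal in these changes was not tested. Levels of different probe sets are not comparable on this array, so no form was ranked against its common counterpart.

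Over the 82 genes the median log2 change was -0.14 in Kelly, beside 0.08 over all genes and -0.11 over the genes with a mean of at least 10. It was -0.01 in BE(2)-C, beside -0.01 over all genes. By complex, the Kelly medians were -0.18 for complex I, -0.38 for complex II, -0.06 for complex III, 0.03 for complex IV and -0.22 for complex V. The complex IV median joins 2 parts of unlike brightness: -0.19 over the 11 common genes and 0.22 over the 6 tissue-restricted forms, which were dim. Without the Kelly arrays numbered 3 the Kelly median of the 82 genes was 0.00, beside 0.13 over all genes in that fit. The count of genes that passed without these arrays was 8, of which 7 fell and 1 rose, beside 8.01% of all genes. Leaving them out, BE(2)-C had 3 genes that passed (ATP5MC1, NDUFB10 and NDUFC1, all lower), beside 9.36% of all genes, and on average 11 passed, beside 14.3%. The sign of the Kelly median rested on those arrays, while 5 of the 6 genes called in Kelly passed without them. The size of this median also depended on the processing. It was -0.025 with quantile normalization, beside 0.09 over all genes, and -0.04 without Kelly JQ1 replicate 3 alone, beside 0.07. The hybridization control signal was higher in Kelly with JQ1 (12.94 ± 0.69) than with DMSO (11.90 ± 1.29, SD, n = 3 each), and its slope passed in 40 of the 82 genes (48.8%, beside 53.5% of all genes). With this signal as a covariate, 11 of the 82 genes passed in Kelly, beside 12.6% of all genes, and 10 of them fell and 1 rose, beside 7.79% and 4.86% of all genes. In BE(2)-C 6 passed, beside 15.2% of all genes, and 4 of them fell and 2 rose, beside 6.98% and 8.2%. The genes gained in BE(2)-C were NDUFC1, NDUFA9, NDUFB4 and ATP5MC1, which fell, and NDUFV3 and SDHA, which rose.

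Complex V was the complex whose array medians were most even within a group. They were 11.69, 11.68 and 11.77 in Kelly with JQ1, against 11.95, 11.97 and 12.07 with DMSO. The BE(2)-C medians were 12.15, 12.20 and 12.14 with JQ1, against 12.32, 12.22 and 12.20 with DMSO. The Kelly groups lay apart and the BE(2)-C groups touched. Complex IV medians were 12.11, 11.88 and 11.25 in Kelly with JQ1, against 12.25, 12.31 and 11.45 with DMSO. Within Kelly the complex IV medians differed more between array 3 and the others than between treatments.

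**Figure D3:**
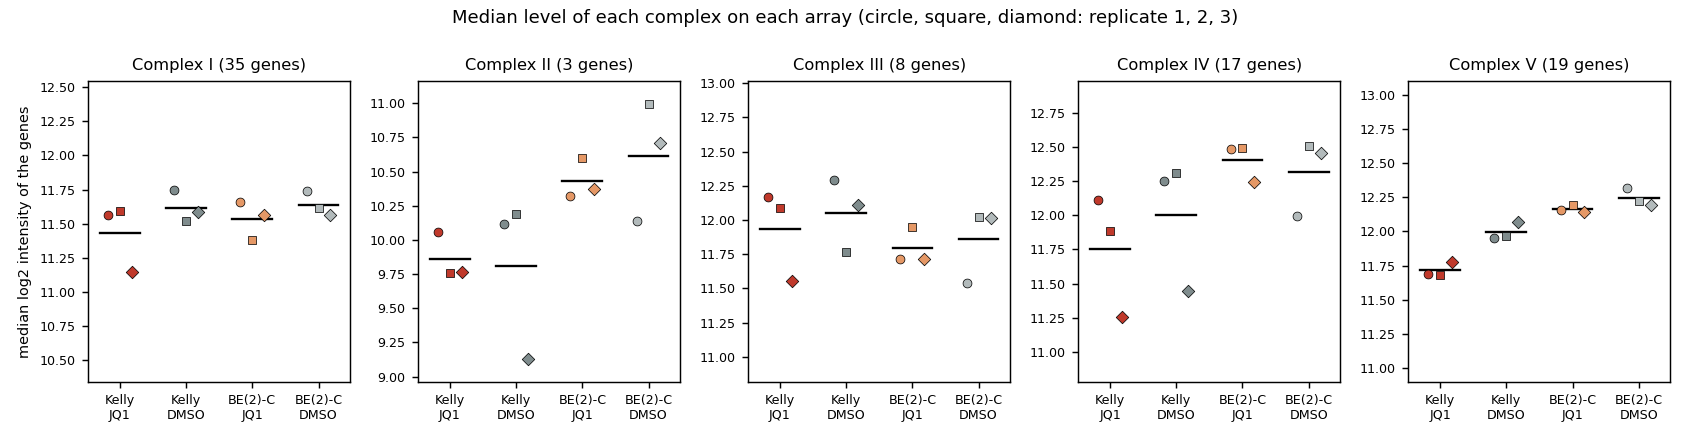
Median log2 intensity of the genes of each complex on each array (vertical axis), for Kelly with JQ1, Kelly with DMSO, BE(2)-C with JQ1 and BE(2)-C with DMSO. Symbols mark replicates 1 to 3 and bars the mean of 3 arrays. The complex IV medians of the Kelly arrays numbered 3 (11.25 with JQ1 and 11.45 with DMSO) lie below the other 10 arrays, which run from 11.88 to 12.51.

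The count in Kelly depended on single arrays. Without Kelly DMSO replicate 1, Kelly DMSO replicate 2 or Kelly JQ1 replicate 3 it was 2 in each case, without Kelly JQ1 replicate 2 or BE(2)-C JQ1 replicate 1 it was 3, and without Kelly DMSO replicate 3 it was 13. In BE(2)-C the count was 1 (NDUFB10), beside 6.67% of all genes, without Kelly JQ1 replicate 3, which shares in the estimate of the spread. NDUFC1 and ATP5MC1 passed in Kelly and on average under all alternatives tried. The other 4 Kelly calls were less stable: ATP5IF1 lost it in 13 of 21 alternatives, UQCR10 in 9, NDUFB4 in 6 and NDUFA9 in 5. Single arrays left out ended the call 9 times of 12 for ATP5IF1, 8 for UQCR10, 5 for NDUFB4 and 4 for NDUFA9, and so did the fit of the Kelly arrays alone for all 4. Kelly DMSO replicate 1, Kelly DMSO replicate 2, Kelly JQ1 replicate 2 and Kelly JQ1 replicate 3 were the arrays that each of the 4 genes depended on, with adjusted p of 0.0542 to 0.143 without 1 of them. NDUFA9, NDUFB4 and NDUFV3 kept the average call under all alternatives tried. The average call was lost for NDUFB10 without BE(2)-C JQ1 replicate 1 or BE(2)-C DMSO replicate 2 (adjusted p = 0.0521 and 0.0516), and for ATP5IF1 without BE(2)-C DMSO replicate 3 or BE(2)-C JQ1 replicate 3 (adjusted p = 0.0569 and 0.0544). UQCR10 lost it without any of 6 arrays, with adjusted p of 0.0514 to 0.0641.

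The JQ1 effect was compared between the lines by the difference of the 2 log2 changes, BE(2)-C minus Kelly. Limma called 0 of 82 genes, beside 0.557% of all genes, and 3 of 82 had an unadjusted p under 0.05. The median difference was 0.18, beside -0.06 over all genes and 0.12 over the genes with a mean of at least 10. Without the Kelly arrays numbered 3 it was 0.07, beside -0.11 over all genes, and with quantile normalization it was 0.08, beside -0.08. NDUFA10, an accessory subunit of complex I, had the largest difference, 1.01 ± 0.49 (95% interval -0.06 to 2.08, adjusted p = 0.459). For NDUFC1 the difference was 0.71 (95% interval -0.12 to 1.55, adjusted p = 0.502), and for ATP5MC1 it was 0.58 (0.03 to 1.13, adjusted p = 0.427). The intervals of NDUFA10 and NDUFC1 include 0, and they also leave room for differences above 1.5 on the log2 scale.

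BE(2)-C and Kelly also differed in these genes, in shares near those of other genes of like brightness. The actin 3' excess was 0.63 to 1.24 in the 6 BE(2)-C arrays and 1.24 to 2.24 in the 6 Kelly arrays, so this measure moves with the line. The hybridization control signal averaged 11.41 in BE(2)-C and 12.94 in Kelly under JQ1, and 11.20 in BE(2)-C and 11.90 in Kelly under DMSO. The part of the actin measure in these differences was not tested. Under JQ1 24 of 82 genes passed (29.3%, beside 23.3% of all genes and 32.2% of the genes with a mean of at least 10), 21 higher in BE(2)-C, beside 12.9% of all genes, and 3 lower, beside 10.4%. Under DMSO 12 passed (14.6%, beside 15.1% of all genes and 18.8% of those with a mean of at least 10), 8 higher in BE(2)-C and 4 lower, beside 7.2% and 7.89% of all genes. In both comparisons 10 genes passed in the same direction, which is 10 of the 24 under JQ1 and 10 of the 12 under DMSO. The group means of the 2 comparisons share no arrays, but the spread of each gene was estimated from all 12 arrays. The 2 tests are therefore not independent. The median difference was 0.29 under JQ1 and 0.14 under DMSO, beside -0.15 and -0.04 over all genes. Over the 1923 genes with a mean of at least 10 it was 0.14 and 0.03. Of those 1923 genes, 394 were higher in BE(2)-C and 225 lower under JQ1, and 188 higher and 173 lower under DMSO. Without the Kelly arrays numbered 3 the median difference of the 82 genes was 0.19 under JQ1 and 0.14 under DMSO. Leaving out BE(2)-C JQ1 replicate 2 gave 14 genes under JQ1, while leaving out Kelly DMSO replicate 1 gave 5 under DMSO and leaving out BE(2)-C DMSO replicate 3 gave 7. Without the Kelly arrays numbered 3 the counts were 20 under JQ1 (beside 22.4% of all genes) and 18 under DMSO (beside 17.8%), 9 of the 18 lower in BE(2)-C.

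Among the genes higher in BE(2)-C were subunits of the ATP synthase membrane part. ATP5MJ, a small membrane subunit, had 12.10, 12.10 and 12.04 in BE(2)-C with JQ1, against 10.86, 10.72 and 10.19 in Kelly with JQ1. Under DMSO it had 11.98, 12.22 and 12.20 in BE(2)-C, against 10.93, 10.82 and 10.76 in Kelly. The lines did not overlap, and ATP5MJ was 2.81-fold higher in BE(2)-C under JQ1 (adjusted p = 6.25e-05) and 2.45-fold higher under DMSO (adjusted p = 0.000206). ATP5MG, subunit g, had log2 differences of 0.71 ± 0.13 under both treatments (adjusted p = 0.00194 under JQ1 and 0.00245 under DMSO). With the mean of the probe sets the log2 difference of ATP5MJ was 0.50 under JQ1 and 0.71 under DMSO, and that of ATP5MG was 1.80 under JQ1, all still past the threshold. ATP5PD, subunit d of the peripheral stalk, had 0.59 ± 0.15 under JQ1 and 0.48 ± 0.15 under DMSO (adjusted p = 0.0120 and 0.0464), and the call under DMSO was lost in 14 of 21 alternatives, among them without the Kelly arrays numbered 3 (adjusted p = 0.0743). ATP5PF, a stalk subunit, and ATP5F1C, the central shaft of F1, were higher in BE(2)-C under JQ1 (log2 differences of 0.95 ± 0.26 and 0.81 ± 0.24, adjusted p = 0.0176 and 0.0312) and not past the threshold under DMSO. The ATP5F1C call was lost in 5 of 21 alternatives, among them the hybridization covariate (0.44, adjusted p = 0.0514) and without the Kelly arrays numbered 3 (0.60, adjusted p = 0.0606). The ATP5PF call was lost without Kelly JQ1 replicate 3, BE(2)-C JQ1 replicate 1 or BE(2)-C JQ1 replicate 2 (adjusted p of 0.0540 to 0.0812), and its log2 difference was 0.55 with the covariate. ATP5F1D, the delta subunit of F1, had 0.48 ± 0.32 under JQ1 (adjusted p = 0.285) and was higher under DMSO (1.11 ± 0.32, adjusted p = 0.0344), a call lost in 6 of 21 alternatives, among them quantile normalization (adjusted p = 0.0865) and the compared arrays alone (adjusted p = 0.145).

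In complex I, NDUFA7, an accessory subunit of the peripheral arm, had 11.92, 11.89 and 12.08 in BE(2)-C with JQ1, against 10.92, 10.84 and 10.33 in Kelly with JQ1. Under DMSO it had 11.81, 11.70 and 11.57 in BE(2)-C, against 10.69, 10.49 and 10.83 in Kelly. It was 2.40-fold higher in BE(2)-C under JQ1 and 2.04-fold higher under DMSO (adjusted p = 0.000250 and 0.00139), without overlap. NDUFV3 was 1.78-fold higher in BE(2)-C under JQ1 and 2.00-fold higher under DMSO (adjusted p = 0.00891 and 0.00342). Under JQ1 the NDUFV3 call was lost with quantile normalization (adjusted p = 0.0895), and its log2 difference of 0.83 was 1.70 with the mean of its probe sets. NDUFC1, the gene that fell most with JQ1, was 2.56-fold higher in BE(2)-C under JQ1 (adjusted p = 0.00319) and did not pass under DMSO (log2 difference 0.64 ± 0.27, adjusted p = 0.159). NDUFA10 had 10.21, 10.56 and 10.17 in BE(2)-C with JQ1, against 9.32, 9.06 and 8.13 in Kelly with JQ1. The Kelly values spread widely and lay below all BE(2)-C values (log2 difference 1.48 ± 0.35, adjusted p = 0.00848; 0.96 with the hybridization covariate). NDUFB4 and NDUFB10 passed under both treatments, with log2 differences of 0.71 and 0.83 under JQ1 and 0.50 and 0.71 under DMSO. Under DMSO the NDUFB4 call was lost in 7 of 21 alternatives, among them the replicate block (adjusted p = 0.0566) and the compared arrays alone (adjusted p = 0.0823), and the NDUFB10 call was lost without any of 4 single arrays (adjusted p of 0.0606 to 0.105). The remaining complex I and V genes that were higher under JQ1 had log2 differences of 0.44 to 1.06. Of these, NDUFB1, NDUFB5 and NDUFS1 lost the call without the Kelly arrays numbered 3. Leaving out 1 array ended the call 6 times of 12 for NDUFB1, 6 for NDUFB5, 9 for NDUFS1 and 4 for ATP5MK.

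NDUFS5, an accessory subunit on the intermembrane side of complex I, was the reverse. It had 10.91, 10.90 and 10.81 in BE(2)-C with JQ1, against 12.07, 12.05 and 12.04 in Kelly with JQ1. Under DMSO it had 11.12, 10.91 and 11.15 in BE(2)-C, against 12.01, 11.92 and 12.08 in Kelly. It was 2.27-fold lower in BE(2)-C under JQ1 and 1.92-fold lower under DMSO (adjusted p = 4.17e-05 and 0.000275). In complex III, the core subunit gene UQCRC1 had 10.86, 10.77 and 11.10 in BE(2)-C with JQ1, against 12.02, 11.92 and 11.31 in Kelly with JQ1. Its log2 difference was -0.84 ± 0.21 under JQ1 and -0.85 ± 0.21 under DMSO (adjusted p = 0.0115 and 0.0138). With the mean of its 3 probe sets in place of the brightest, UQCRC1 did not pass (log2 differences of -0.52 and -0.58, adjusted p = 0.175 and 0.212). UQCRH, the hinge protein, had a log2 difference of -0.42 ± 0.18 under JQ1 (adjusted p = 0.106) and was lower in BE(2)-C under DMSO (-0.61 ± 0.18, adjusted p = 0.0356), a call lost in 7 of 21 alternatives, among them the mean of its probe sets (adjusted p = 0.0911). UQCRHL, an intronless copy of UQCRH whose probes may read both genes, was lower under JQ1 (-0.79 ± 0.20, adjusted p = 0.0126) and under DMSO (-0.74 ± 0.20, adjusted p = 0.0224). The UQCRHL call under DMSO was lost in 5 of 21 alternatives, among them without the Kelly arrays numbered 3 (-0.61, adjusted p = 0.0731).

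In complex IV 2 of 17 genes passed between the lines under JQ1, and 0 of 17 under DMSO by limma, where 2 of 17 had an unadjusted p under 0.05. COX7B had 12.94, 13.05 and 12.73 in BE(2)-C with JQ1, against 12.12, 11.98 and 11.70 in Kelly with JQ1 (log2 difference 0.97 ± 0.20, adjusted p = 0.00420). COX6A1, the liver and general form of its subunit, had a log2 difference of 0.37 ± 0.12 (adjusted p = 0.0495), a call that was lost in 15 of 21 alternatives, among them the mean of its probe sets (0.15, adjusted p = 0.390) and without the Kelly arrays numbered 3 (adjusted p = 0.0655). In complex II SDHD passed under JQ1 (0.97 ± 0.30, adjusted p = 0.0345) and not under DMSO (0.92 ± 0.30, adjusted p = 0.0572), 2 values that differ by much less than their SE. The SDHD call under JQ1 was lost in 7 of 21 alternatives, among them quantile normalization (adjusted p = 0.0767) and the hybridization covariate (0.62, adjusted p = 0.0986). Under DMSO SDHD passed with the mean of its probe sets (adjusted p = 0.0125), and 3 of its 5 probe sets passed by themselves.

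**Figure D4:**
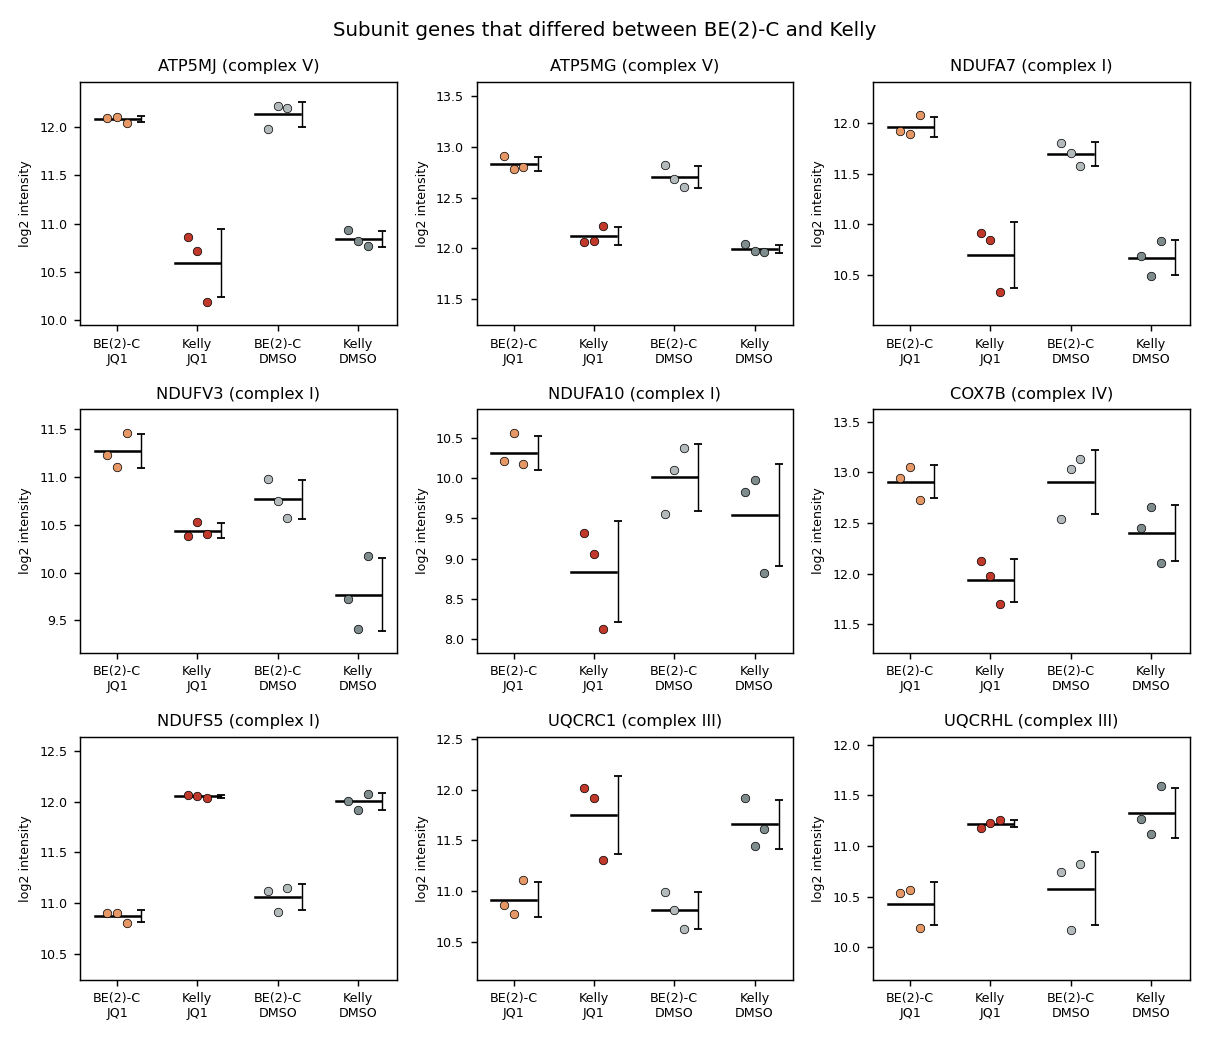
Log2 intensity (vertical axis) of 9 genes that differed between the lines, in BE(2)-C with JQ1, Kelly with JQ1, BE(2)-C with DMSO and Kelly with DMSO. Points are arrays in the order of replicates 1 to 3, bars are means and error bars are SD (n = 3). ATP5MJ and NDUFS5 show lines that stay apart under both treatments, with ATP5MJ higher and NDUFS5 lower in BE(2)-C.

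Genes whose products build the complexes were counted in the same fit. Of 15 complex I assembly factors, 4 fell on average: NDUFAF6 (log2 change -0.85), TMEM126B (-0.56), NDUFAF4 (-0.48) and ECSIT (-0.39). Of 20 measured complex IV assembly factors, 4 fell and 1 rose. COA7 and the copper-handling protein COA6 fell by 1.29 each on the log2 scale, TACO1, a translational activator of COX1, fell by 0.89 and COA3 fell by 0.57. SURF1, which acts in haem insertion, rose by 0.62. The assembly factors of complexes II, III and V had 0 of 4, 0 of 6 and 0 of 3 passing by limma on average, with 1, 1 and 0 at an unadjusted p under 0.05. Likewise 0 of 3 passed, with 1 at an unadjusted p under 0.05, among CYC1, CYCS and NDUFAB1, which carry electrons or belong to the complexes under other symbols.

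Of 13 measured regulators of mitochondrial gene expression, 3 fell on average: PPRC1, a coactivator of NRF1 (-1.05), TFB2M, which starts transcription of mitochondrial DNA (-0.88), and TWNK, its replicative helicase (-0.76). POLG, the mitochondrial DNA polymerase, rose by 0.68. Of 13 tricarboxylic acid cycle genes, 0 passed for JQ1 by limma, with 4 in Kelly, 1 in BE(2)-C and 5 on average at an unadjusted p under 0.05. The lists of assembly factors, regulators and cycle genes are read beside the 11.1% of all genes that passed on average.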

How the data were processed

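Total RNA of 12 samples was labelled with a 3' in vitro transcription kit and read on the Affymetrix PrimeView array, per the labels' protocols. The authors made the values with RMA, per the submitters' processing notes: background correction, normalization across arrays and 1 value per probe set. The RMA version was not given in the sources used here. The deposited intensity is linear (array medians run from 61.4 to 67.3), although the tests were planned for log2 values, and log2 was computed here with no offset. RMA brings arrays to a common distribution, so a shift in total RNA cannot be seen.

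Of 49395 probe sets, 44988 have a single gene symbol in GEO's platform table; 1832 with several symbols, 2473 with none and 102 controls were left out. Entrez identifiers gave current symbols for 99.94% (gene table of GRCh38.p14). For each gene the brightest probe set, by its mean over the 12 arrays, was used. The 82 members have 188 probe sets. For 38 members the chosen probe set carries the array's mark for probes shared between transcripts or sequences, so related genes may add to it.

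With limma 3.58.1 under R 4.3.3, lmFit, contrasts.fit and eBayes fitted 4 group means over all 12 arrays, with two-sided p-values adjusted by Benjamini-Hochberg over 18132 genes in each of 6 comparisons. The number of arrays limits precision: the median SE of a log2 change of these genes within a line was 0.19. The fit was tested on simulated data. Named genes were, in each complex, up to 4 passing genes by size of change per comparison or the largest where none passed, the brightest and dimmest gene, tissue-restricted forms, and up to 4 passing genes of each other list. The members and lists were chosen with earlier results of these data known. Promoters came from the RefSeq table of GRCh38.p14.

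Residuals of same-numbered JQ1 and DMSO arrays correlated across genes at 0.434, 0.228 and 0.515 in Kelly, and at -0.07, 0.53 and -0.74 in BE(2)-C. Kelly arrays 1 and 2 of unlike number correlated at 0.463 and 0.122, so these are not shown to be pairs. Kelly arrays numbered 3 correlated with those of other numbers at -0.559 to -0.237. No block was used in the main results. Alternatives were quantile normalization, averaging all probe sets of a gene, a trended robust prior, the replicate block, the hybridization control signal as a covariate, a filter at a mean of 5, an offset of 16, the compared arrays alone, each array left out, and, chosen after seeing the data, both Kelly arrays numbered 3 left out and a block shared by the lines for comparisons between them.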

Additional observations from a re-analysis of the deposited data

How the results depend on the processing

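The 6 genes that passed for JQ1 in Kelly became 11 with the hybridization control signal as a covariate and 2 with only the Kelly arrays in the fit, and leaving out 1 array gave 2 to 13. In BE(2)-C the count of 0 (4.69%) became 3 with quantile normalization (6.28%). It became 1 with the mean of the probe sets of a gene (4.55%) and 1 with the replicate block (4.37%). With the covariate it was 6 (15.2%), and without both Kelly arrays numbered 3 it was 3 (9.36%). Leaving out 1 array gave 0 to 1 (1.78% to 6.67%). NDUFC1 was the gene gained with the replicate block. The average over the lines gave 6 to 11 when 1 array was left out (7.5% to 13.6%). It gave 8 with the replicate block (11.6%) and 13 with the covariate (20.3%). The difference between the lines gave 0 throughout (0.215% to 3.78%). Between the lines under JQ1, leaving out 1 array gave 14 to 31 (14.1% to 29.3%). Under DMSO, 12 (15.1%) became 24 with the covariate (26.5%) and 7 with only the compared arrays (10.6%). Leaving out 1 array gave 5 to 15 there (10.8% to 17.4%). The replicate block kept the Kelly count at 6 (8.4%), losing ATP5IF1 and gaining NDUFS6. Between the lines it gave 22 under JQ1 (23.4%) and 10 under DMSO (14.6%). Of the log2 changes of the named genes over all alternatives, 4984 of 5190 kept their side of the threshold, 125 no longer passed and 81 newly passed. Most of the 5190 belong to changes that did not pass in the main fit, and only those that passed there could be lost. The 4984 are therefore no measure of how stable the calls were. Losses per call ran from 0 of 21 alternatives (ATP5MC1 in Kelly) to 15 of 21 (COX6A1 between the lines under JQ1). The sign changed in 208 of the 4984, and 0 of these 208 passed in either fit. The smaller counts with fewer arrays come with fewer samples; the cause of the other changes was not tested. With 3 arrays a group the SE is about 0.19 on the log2 scale, so a gene that did not pass is not shown to be unchanged.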

Other observations

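Of the 13 tricarboxylic acid cycle genes measured, which feed complexes I and II, 7 were higher and 1 lower in BE(2)-C than in Kelly under JQ1, and 5 higher and 1 lower under DMSO, beside 23.3% and 15.1% of all genes that passed. DLD, the dihydrolipoamide dehydrogenase shared by several dehydrogenase complexes, had log2 differences of 2.40 under JQ1 and 1.72 under DMSO. IDH3A, the catalytic subunit of the NAD-dependent isocitrate dehydrogenase, had 1.24 and 1.75. PDHB, a subunit of pyruvate dehydrogenase, was lower in BE(2)-C, with -0.51 under JQ1 and -0.77 under DMSO.

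Probe sets of a gene did not always give the same picture. Of 50 member genes with several probe sets, 33 had changes of 1 sign in Kelly, and 0 had probe sets that passed in opposite directions. ATP5MG changed by 0.13 in Kelly by its brightest probe set, and by -1.24 (passing) and -1.21 (not passing) by its dimmer probe sets. The 4 probe sets of ATP5IF1 changed by -0.58, -0.90, -1.45 and -1.83 in Kelly, the dimmest by the most.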
